A study of Arabidopsis thaliana with 12 samples.

Results

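STOMAGEN (AT4G12970, also called EPFL9) is a small secreted, cysteine-rich peptide of Arabidopsis thaliana, and its transcript was followed here across 4 seedling genotypes on 12 Affymetrix arrays. It was found through the platform annotation, which gives it 1 probe set, 254794_at, and it is 1 of the 13286 genes named among 22746 probe sets once controls were set aside. Stomata are the pores of the plant epidermis. The peptide is made in the mesophyll, the photosynthetic tissue under the epidermis, and acts on the epidermis above, where it promotes stomatal formation. It competes with the inhibitory peptides EPF1 and EPF2 for a receptor complex of TMM and ERECTA-family kinases, which signals through a MAP kinase cascade that limits the transcription factor SPCH. SPCH starts the stomatal lineage, MUTE ends the divisions of its precursor cells, the meristemoids, and FAMA acts in the making of guard cells.

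Whole seedlings were taken 5 days after germination, all in the Col-0 background, and each genotype had 3 biological replicates, numbered 2 to 4. All had 2 days of stratification at 4 °C and growth at 21 °C under 18 h light and 6 h dark. The mutants were spch, which per the labels has only pavement cells in its epidermis; scrm-D, with an epidermis of guard cells by the same labels; and scrm-D;mute, described as almost entirely meristemoids and called the double mutant below. Wild type (WT) Col-0 seedlings were the control. The scrm-D allele is a dominant allele of SCRM, the partner of SPCH, MUTE and FAMA, and is carried by both scrm-D genotypes. The labels name no allele of spch or mute.

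Each array gave 1 log2 expression value per probe set, with array medians between 6.39 and 6.53. A level of 4.99, the 95th percentile of the values of bacterial control probe sets where their transcript had not been added, served as the background level. The 16 measured photosynthesis and mesophyll genes averaged between 11.80 and 12.54 on every array, and both measured root hair expansin genes (of 7 root genes listed) averaged 6.23 and 6.50 in WT. Both root genes fell in spch relative to WT, EXPA7 by 0.92 (adjusted p = 0.0413) and EXPA18 by 1.71 (adjusted p = 0.000119), with 1 of the 2 passing on replicates 2 and 3 alone, and neither passed against WT in scrm-D or the double mutant. Their mean level ran from 4.96 to 5.14 in spch, from 6.23 to 6.76 in scrm-D, from 5.74 to 6.21 in the double mutant and from 6.05 to 6.63 in WT, and its part in the spch comparisons below was not tested. Of 10 listed guard cell genes 2 were measured, and their mean level ran from 4.38 to 7.90 in spch, from 11.22 to 11.54 in scrm-D, from 6.50 to 7.60 in the double mutant and from 8.40 to 8.85 in WT. No listed gene of the epidermis or the vasculature had a named probe set. Control values differed on replicate 4. The 18 hybridisation control probe sets averaged between 9.40 and 9.89 on the replicate 4 arrays, against 9.99 to 10.64 on the 8 other arrays, and were lowest on replicate 4 in 4 of 4 genotypes, though in spch by little. The excess of the 3′ over the 5′ actin probe set was also lowest on replicate 4 in each genotype, in WT by little. There the 5′ value was the highest and the 3′ value the lowest of each genotype. The part of these differences in the results below was not tested, and results are therefore also given with a block for the replicate number, and on replicates 2 and 3 alone, which was added once the values were known.

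STOMAGEN was lowest in the double mutant, followed by scrm-D, spch and WT, and the same order of the 4 genotypes was seen within each replicate number. On replicates 2, 3 and 4 it read 9.00, 8.91 and 7.59 in spch. It read 8.15, 8.26 and 7.06 in scrm-D. It read 7.11, 7.06 and 6.12 in the double mutant, against 9.10, 9.20 and 8.86 in WT. Every one of these values was above the background level. The means were 8.50 ± 0.79 in spch, 7.82 ± 0.67 in scrm-D, 6.76 ± 0.56 in the double mutant and 9.05 ± 0.18 in WT (SD, n = 3 each). The scrm-D and double mutant groups each lay wholly below WT. The groups of neighbours in this order overlapped for spch with WT, scrm-D with spch and the double mutant with scrm-D, in each case through the low value of replicate 4.

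**Figure D1:**
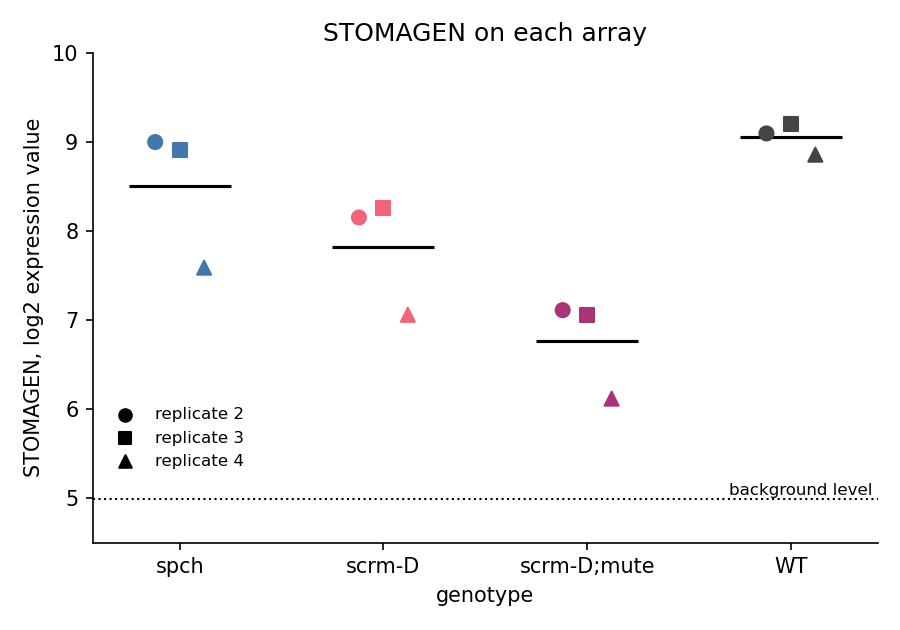
STOMAGEN log2 expression value on each of the 12 arrays (y axis) by genotype (x axis). Symbols mark the replicate number, horizontal bars the mean of 3 arrays, and the dotted line the background level of 4.99. Replicate 4 is the lowest point of every genotype, and replicates 2 and 3 separate scrm-D and the double mutant from spch and WT.

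In the double mutant STOMAGEN fell 4.89-fold relative to WT, a log2 change of −2.29 ± 0.40 (SE) with a 95% interval of −3.15 to −1.42. The test was limma's over all probe sets, with Benjamini-Hochberg adjustment (adjusted p = 0.00106), and 27.7% of all probe sets passed in this comparison. The change itself stood near the end of the distribution, with 0.356% of all probe sets at a more negative value. STOMAGEN was lower in the double mutant than in WT in 3 of 3 same-numbered pairs, by −1.99, −2.14 and −2.74 on the log2 scale for replicates 2, 3 and 4. With any 1 of the 12 arrays left out, the change lay between −2.46 and −1.97 and the adjusted p was at most 0.00535. In whole-seedling RNA, fewer mesophyll cells and less STOMAGEN RNA per mesophyll cell cannot be told apart.

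In scrm-D STOMAGEN was 2.34-fold lower than in WT, at −1.23 ± 0.40 (SE; 95% interval −2.09 to −0.36), and limma's adjusted p was 0.0596, just over the threshold of 0.05 that 14.2% of all probe sets passed. The 2 groups did not overlap, and the same-numbered differences were −0.94, −0.94 and −1.80. The replicate numbers paired these genotypes by the correlation of their deviations, and with the number as a block the change was −1.23 ± 0.19 with adjusted p = 0.000878, where 17.9% of all probe sets passed. On replicates 2 and 3 alone it was −0.94 with adjusted p = 0.000962, where 10.9% passed. That run keeps 2 arrays a genotype and drops the lowest STOMAGEN value of each. A smaller spread of STOMAGEN followed from that choice, so the p from this run gives no separate support, here or in the comparisons below. A call also appeared without spch replicate 4 (adjusted p = 0.0189) or without replicate 4 of the double mutant (0.0435), arrays outside the comparison that share its estimate of the spread. Of the alternative runs 6 gave a call and 13 did not. Without scrm-D replicate 4 the change was −0.84 with adjusted p = 0.232.

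In spch STOMAGEN did not pass the test against WT, at −0.55 ± 0.40 (SE; adjusted p = 0.414, where 19.5% of all probe sets passed), and the interval of −1.42 to 0.31 covers both a fall and a small rise. The same-numbered differences were −0.10, −0.29 and −1.27, so that replicate 4 carried most of the mean difference. With the replicate block the adjusted p was 0.0516, where 23.8% of all probe sets passed, and the interval was −0.96 to −0.14. On replicates 2 and 3 alone the difference was −0.19, with adjusted p = 0.416, where 14.5% passed. The mean of the 2 measured guard cell genes was 7.90, 7.74 and 4.38 on spch replicates 2, 3 and 4, against 8.40 to 8.85 in WT. Replicates 2 and 3 of spch thus held signal of these genes above the background level, though the labels give only pavement cells. The part of this in the STOMAGEN values was not tested.

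Between the mutants, STOMAGEN fell 3.34-fold in the double mutant relative to spch (log2 change −1.74 ± 0.40 SE, adjusted p = 0.00454, where 33.2% of all probe sets passed), and the same-numbered differences were −1.89, −1.85 and −1.47. By the labels both genotypes lack the guard cell epidermis of scrm-D, and they differ in having meristemoids or pavement cells. They also differ in the mutations themselves, scrm-D and mute in one and spch in the other, and these differences cannot be told apart here. The double mutant was 2.09-fold lower than scrm-D, at −1.06 ± 0.40 with adjusted p = 0.105, where 13.4% of all probe sets passed. Here the same-numbered differences were close to one another, at −1.04, −1.20 and −0.94. With the replicate block the change passed (−1.06 ± 0.19, adjusted p = 0.00231), along with 17.4% of all probe sets. It also did so on replicates 2 and 3 alone (−1.12, adjusted p = 0.000279), where 13.9% passed. A call was made too without spch replicate 4 (adjusted p = 0.0394) or without scrm-D replicate 4, where it was −1.44 with adjusted p = 0.0349. Of the alternative runs of this comparison 4 gave a call and 15 did not. For scrm-D against spch the difference was −0.68 ± 0.40 (adjusted p = 0.243, where 30% of all probe sets passed), and the same-numbered differences were −0.85, −0.65 and −0.53. It passed without spch replicate 4, at −1.13 with adjusted p = 0.0310, and on replicates 2 and 3 alone, at −0.75 with adjusted p = 0.00209, where 24.4% passed. With the replicate block, 3 alternative runs gave a call for scrm-D against spch and 16 did not. These 6 comparisons share arrays and are not independent of one another.

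**Figure D2:**
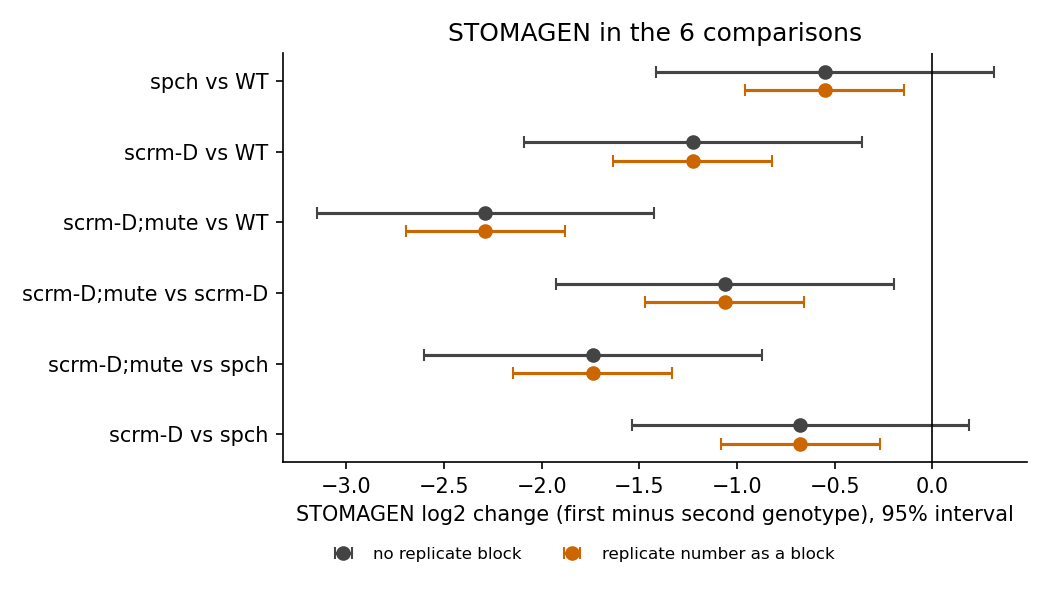
Log2 change of STOMAGEN (x axis) in each of the 6 comparisons (y axis, first genotype minus second), as points with 95% intervals, without a block and with a block for the replicate number. The estimates are the same in both fits, and the block narrows every interval, for example from −3.15 to −1.42 without it to −2.70 to −1.88 with it in the double mutant against WT.

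The spread of STOMAGEN within genotypes was itself unusual. Its residual standard deviation was 0.594, against a median of 0.178 over all probe sets, and 0.945% of probe sets had a larger one. Replicate 4 was below the mean of replicates 2 and 3 by −1.37 in spch, −1.15 in scrm-D, −0.97 in the double mutant and −0.29 in WT. In a comparison chosen after the data were seen, replicate 4 against replicates 2 and 3 within genotypes gave −0.94 ± 0.14 (SE, limma's adjusted p = 0.00699). In that comparison 3.86% of all probe sets passed, 479 lower and 398 higher on replicate 4. Replicate 4 was the lowest value in all 4 genotypes for 5.44% of probe sets, against 1.60% for replicate 2 and 2.35% for replicate 3. The labels do not say whether replicate 4 differed in growth, harvest or labelling.

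Most of the measured photosynthesis and mesophyll genes fell in the double mutant, and 9 of 16 fell in scrm-D. Of 108 listed genes of the photosystems and antenna, the Calvin cycle, chloroplast development and mesophyll markers, 16 were measured. The 2 measured mesophyll markers were the photorespiration genes HPR1 and GLYK. In the double mutant 12 of the 16 fell and none rose (13.6% of all probe sets fell and 14.1% rose), with a median change of −0.67 against −0.00737 over all probe sets, and 12 fell on replicates 2 and 3 alone, where 24.6% of all probe sets passed in either direction. In scrm-D 9 of the 16 fell and none rose (7.39% of all probe sets fell and 6.76% rose), with a median of −0.55. The count in scrm-D was 10 with the replicate block and 6 on replicates 2 and 3 alone. LHCB4.3, an antenna protein gene named here after its values were seen, was at 0.21 in scrm-D without passing. In spch 2 fell and 2 rose, where 9.93% of all probe sets fell and 9.6% rose, with a median of −0.04.

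Among the genes that fell in the double mutant, PRK, which encodes the Calvin cycle enzyme phosphoribulokinase, changed by −0.86 ± 0.14 (SE, adjusted p = 0.000807), and SBPASE, another enzyme of that cycle, by −0.82. PSAN and PSAE1, subunits of photosystem I, fell by 0.67 and 0.52. LHCB4.2 and LHCB4.1, antenna proteins of photosystem II, fell by 0.81 and 0.46, PSBY of photosystem II by 0.62 and ATPC1, a subunit of the chloroplast ATP synthase, by 0.48. PORB and CHLM of chlorophyll synthesis fell by 0.72 and 0.66. HPR1, the photorespiratory hydroxypyruvate reductase, read 12.19, 12.14 and 11.92 in the double mutant, against 12.92, 12.72 and 12.98 in WT, and fell by 0.79. GLYK, which encodes glycerate kinase of the same pathway, fell by 0.71. PGK2 and RCA, the Rubisco activase gene, did not pass, at −0.73 and −0.23.

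In the double mutant and in scrm-D 0 of the 16 genes had a lower change from WT than STOMAGEN. The 16 genes averaged 11.80 to 12.54 on the arrays, well above the 6.12 to 9.20 of STOMAGEN. Whether log2 changes are of like size at such different levels was not tested, so the counts and gaps here compare measured values only. In spch, where STOMAGEN did not pass, 3 of 16 had a lower change. Relative to the WT mean the 16 genes averaged −0.56, −0.58 and −0.63 on the 3 double mutant arrays, where STOMAGEN stood at −1.94, −1.99 and −2.93. On the scrm-D arrays they averaged −0.51, −0.47 and −0.69, where STOMAGEN stood at −0.90, −0.79 and −1.99. On the spch arrays they averaged −0.06, −0.03 and −0.22, and STOMAGEN stood at −0.05, −0.14 and −1.46. The gap between STOMAGEN and the mean of the 16 was thus widest in the double mutant, at −1.70 ± 0.53, against −0.67 ± 0.55 in scrm-D and −0.45 ± 0.69 in spch (SD, n = 3 each), and the difference between these gaps was not tested. Between the double mutant and scrm-D none of the 16 passed (median −0.01), and STOMAGEN, at −1.06, did not pass either without the block. On replicates 2 and 3 and with the block STOMAGEN passed, as given above, and 0 of the 16 did under either. The 2 measured photorespiration genes went the other way in spch: HPR1 rose by 0.49 and GLYK by 1.03, where both root genes fell. PORB fell by 1.33 in spch, further than in the double mutant.

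**Figure D3:**
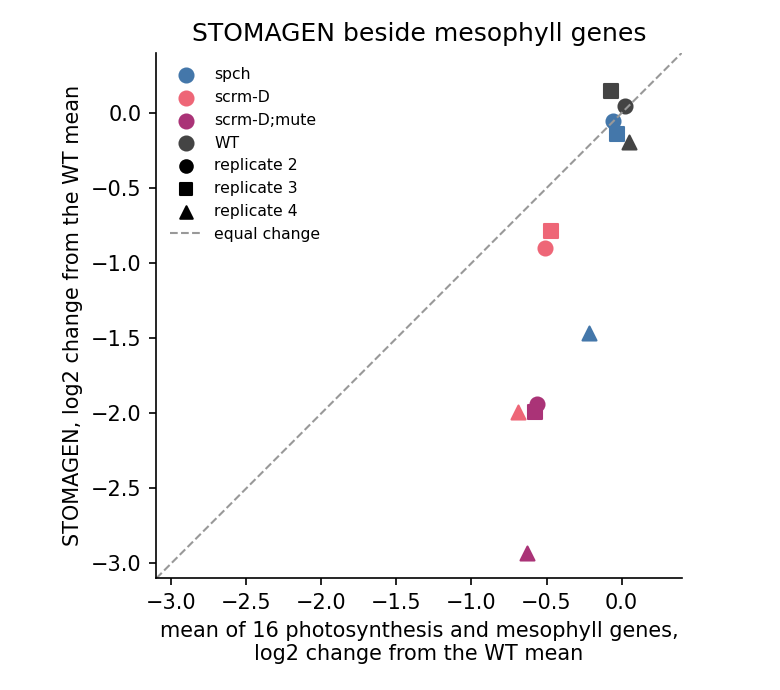
Log2 change from the WT mean of STOMAGEN (y axis) against that of the mean of 16 photosynthesis and mesophyll genes (x axis), 1 point per array. The dashed line marks equal change. All 6 arrays of scrm-D and the double mutant lie below the line, at −0.79 to −2.93 for STOMAGEN where the 16 genes averaged −0.47 to −0.69.

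Few other genes of the STOMAGEN pathway could be followed. Of the 10 other listed EPF and EPFL peptides only EPFL1 had a named probe set, and its genotype means of 4.43 to 4.94 lay below the background level. Of 10 listed receptors and proteases only CRSP was measured, the protease gene whose product processes EPF2. CRSP read 6.64, 6.17 and 7.31 in spch, against 6.26, 5.93 and 5.42 in WT, and did not pass (0.84 ± 0.29 SE, adjusted p = 0.065). In the double mutant it read 6.13, 5.71 and 5.29, and it fell by 1.00 relative to spch (adjusted p = 0.0192). Replicate 4 carried most of that difference, and CRSP did not pass on replicates 2 and 3 alone, where 30.3% of all probe sets did. None of the 12 listed genes of the MAP kinase cascade had a named probe set.

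HYH was the measured gene among 7 listed light and auxin regulators of STOMAGEN. It is a close relative of HY5, the light-signalling factor that raises STOMAGEN expression in the mesophyll. HYH read 9.30, 9.10 and 8.89 in spch, against 7.75, 7.93 and 7.64 in WT, and rose by 1.32 ± 0.18 (SE, adjusted p = 0.000397). In scrm-D and the double mutant it differed from WT by 0.05 and 0.08 and did not pass. In spch STOMAGEN did not pass against WT, and its interval there was −1.42 to 0.31. The relation of HYH to STOMAGEN was not tested.

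Of 12 listed stomatal lineage factors 5 were measured, and in the double mutant 4 rose and 1 fell relative to WT, where 14.1% of all probe sets rose and 13.6% fell. SPCH read 10.89, 10.85 and 10.56 in the double mutant, against 6.15, 6.71 and 6.22 in WT. In spch SPCH read 5.41, 5.11 and 5.41 and fell by 1.05 relative to WT (adjusted p = 0.00726). MUTE averaged 10.78 ± 0.20 in the double mutant, which carries the mute mutation, against 4.48 ± 0.05 in WT (SD, n = 3 each), below the background level. Where the probe sets lie relative to the spch and mute lesions is not stated in the labels, so these levels do not check the genotypes. SOL1, which encodes a DNA-binding protein of the lineage, read 10.93, 10.73 and 10.43 in the double mutant, against 7.01, 7.32 and 6.52 in WT, and rose by 3.75 ± 0.24 (SE, adjusted p = 3.6e-07). TSO1, a relative of SOL1, rose by 0.31 in the double mutant and fell by 0.41 in spch. SPCH, MUTE and SOL1 were highest in the double mutant, where STOMAGEN was lowest. FAMA rose by 2.65 in scrm-D, where STOMAGEN was lower than in WT, and fell by 1.01 in the double mutant, where STOMAGEN also fell.

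Likeness to STOMAGEN was measured as Pearson's r over the 12 arrays, which share 4 genotypes and 3 replicate numbers, so r is a description here and no p is given. Of 13286 named genes, 1905 had a mean at or above background and genotype means at least 1 apart on the log2 scale, and 41 of these (2.15%) had r above 0.9 with STOMAGEN, while 8 had r below −0.9. The most similar was AT1G65295 (r = 0.98, Spearman's rho = 0.87), followed by AT2G40460, AT1G64370, AT3G07940, AT5G11420, AT5G45950, AT3G08600, AT3G10080, AOP1 (AT4G03070) and AT5G41400, the last at r = 0.949 with the next gene at 0.948. Except for AOP1, which lies among the AOP genes of glucosinolate side-chain modification, the reference annotation names them by locus alone.

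AT1G65295 read 8.05, 7.99 and 7.70 in the double mutant, against 9.33, 9.32 and 9.39 in WT. In scrm-D it read 8.86, 8.76 and 8.02, and in spch 9.24, 9.44 and 8.53. It followed STOMAGEN in the order of the genotype means and in the low value of replicate 4, except in WT. AOP1 read 5.14, 5.35 and 5.12 in the double mutant, against 7.63, 7.43 and 7.25 in WT, a log2 change of −2.23. AT2G40460 (r = 0.97, rho = 0.97) read 5.38, 5.90 and 4.54 in the double mutant, against 7.25, 7.22 and 6.58 in WT, with its lowest value in each genotype on replicate 4.

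The 10 genes with the lowest r ran from −0.93 to −0.898, with the next gene at −0.897. They were TY1 (AT1G76760), a chloroplast thioredoxin, AT1G11330, AT2G23450, AT5G14530, AT3G47800, ACA.l (AT1G13210), AT1G72060, BIK1 (AT2G39660), an immune receptor-like cytoplasmic kinase, AT2G47890 and AT2G48030. AT3G47800 read 7.46, 7.60 and 8.28 in the double mutant, against 5.12, 5.04 and 5.34 in WT. BIK1 read 9.60, 9.36 and 10.11 in the double mutant, against 8.56, 8.23 and 8.51 in WT. TY1 read 7.32, 7.66 and 7.68 in the double mutant, against 6.24, 6.17 and 6.44 in WT. In the double mutant replicate 4 was the highest value of all 3 genes, where STOMAGEN was at its lowest.

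This ranking changed greatly without replicate 4. On replicates 2 and 3 alone 1 of the 20 genes stayed among the 10 highest and 10 lowest, and without spch replicate 4, 10 of 20 did. Leaving out the 2 arrays farthest from the STOMAGEN median, replicate 4 of the double mutant and of scrm-D, kept 9 of 20, though r for AT1G65295 was 0.98 without them.

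Correlating deviations from the genotype means asks which genes moved with STOMAGEN among replicates, with genotype set aside. Of the 1905 genes 50 (2.62%) had r above 0.9 on this measure, and 24 of the 50 had a negative r over the 12 arrays. The median r over the 12 arrays was 0.05 for all 1905 genes, so a negative r was common among them as well. The 5 highest were AT4G23670, ATMYC1 (AT4G00480), AT5G45670, the chloroplast-encoded petD and AT4G29030, at 0.97 to 0.98. ATMYC1, a basic helix-loop-helix factor of epidermal cell fate, read 8.15, 8.26 and 7.71 in the double mutant, 7.61, 7.72 and 6.72 in scrm-D and 6.29, 6.10 and 5.32 in spch, against 7.12, 7.06 and 6.80 in WT. It was thus low on replicate 4 like STOMAGEN (deviations, r = 0.97), while across genotypes it was highest in the double mutant (12 arrays, r = −0.39).

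SOL1 showed the same split, with r = 0.81 for deviations and −0.72 over the 12 arrays. For SPCH the 2 values were 0.44 and −0.75, and for MUTE 0.49 and −0.81. The 16 photosynthesis and mesophyll genes had a median r of 0.55 for deviations and 0.73 over the 12 arrays, and the 12-array values ran from −0.04 to 0.90. LHCB4.2 was the only one of the 16 to pass the comparison of replicate 4 with replicates 2 and 3 (adjusted p = 0.0435), and the median of the 16 in that comparison was −0.12 where STOMAGEN was at −0.94. Among guard cell genes GC1, at 9.70, 9.64 and 4.31 on the spch arrays, had r = 0.77 for deviations.

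**Figure D4:**
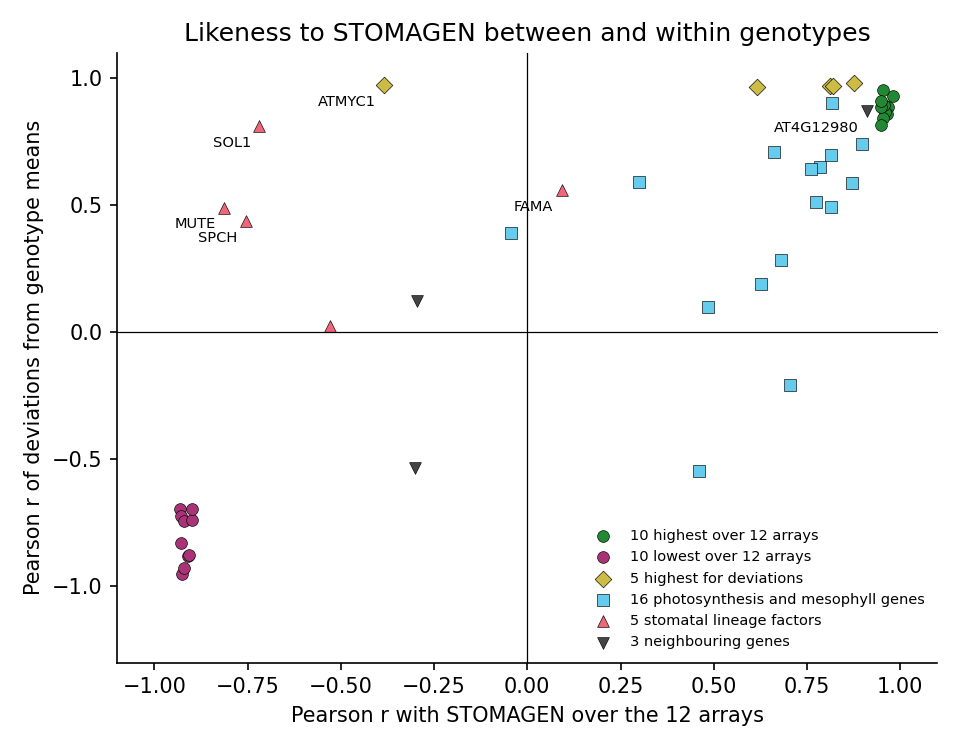
Pearson's r with STOMAGEN for deviations from genotype means (y axis) against r over the 12 arrays (x axis), 1 point per named gene, coloured by the set it belongs to. SPCH, MUTE, SOL1 and ATMYC1 lie at the upper left, with r of −0.72 over the 12 arrays and 0.81 for deviations for SOL1, while FAMA (0.09 and 0.56) and TSO1 (−0.53 and 0.02) lie apart from them.

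The next annotated gene after STOMAGEN on its chromosome, AT4G12980, had a similar profile. It read 7.90, 7.82 and 7.29 in spch, 6.44, 6.47 and 5.77 in scrm-D and 6.21, 5.96 and 5.40 in the double mutant, against 8.84, 8.70 and 8.04 in WT. All 3 mutant groups lay below WT, and replicate 4 was the lowest value in each genotype. AT4G12980 fell by 2.67 ± 0.27 in the double mutant (log2, SE, adjusted p = 1.89e-05). It fell 4.92-fold in scrm-D (adjusted p = 0.000147) and 1.81-fold in spch (adjusted p = 0.044), and it was lower on replicate 4 (adjusted p = 0.00276). Its r with STOMAGEN was 0.91 over the 12 arrays (rho = 0.95) and 0.87 for deviations. It was 1 of the 41 genes of 1905 with r above 0.9 and not among the 10 highest. AT4G12980 changed by −2.30 in scrm-D and −2.67 in the double mutant, where STOMAGEN changed by −1.23 and −2.29.

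Between the double mutant and scrm-D neither gene passed without the block and both did with it. AT4G12980 was at −0.37 (adjusted p = 0.456, and 0.0224 with the replicate block) and STOMAGEN at −1.06, and the difference between the genes was not tested. On the other side of STOMAGEN, GILT (AT4G12960), which encodes a thiol reductase, read between 3.97 and 4.43 on all 12 arrays, below the background level. AT4G12990, the third gene after STOMAGEN, read between 4.33 and 5.10 with no call in any mutant against WT. The annotated genes at the other 3 of these 6 neighbouring positions had no named probe set.

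**Figure D5:**
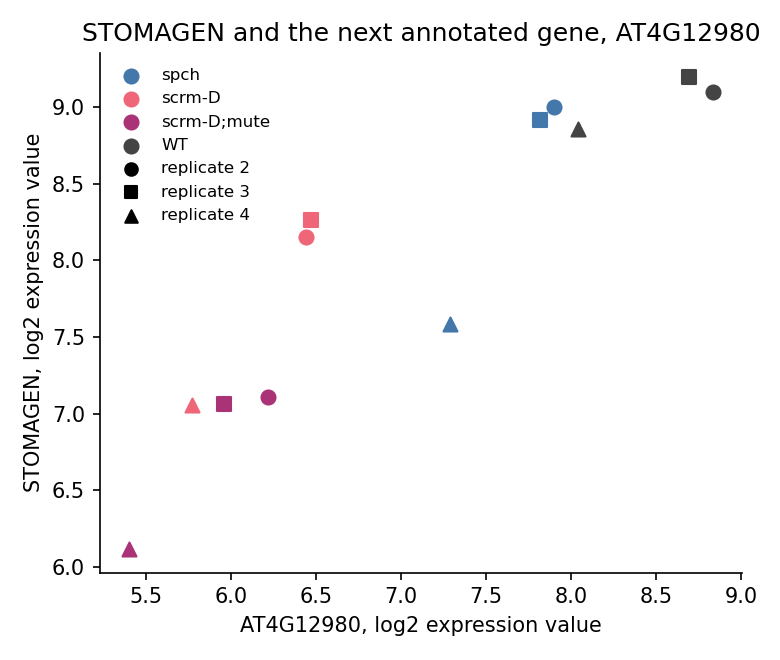
STOMAGEN (y axis) against AT4G12980 (x axis), both as log2 expression values, 1 point per array, with colour for genotype and symbol for replicate. WT arrays lie at the upper right (8.04 to 8.84 for AT4G12980) and double mutant arrays at the lower left (5.40 to 6.21).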

How the data were processed

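Log2 expression values per probe set, deposited by the authors, were used as given. RMA and limma are listed, with no version, in the submitters' processing notes. The build behind the probe sets was not stated. Groups and replicate numbers came from the titles. For scrm-D samples the description reads as the double mutant, while title and genotype say scrm-D. The 64 control probe sets were set aside, and limma 3.58.1 (R 4.3.3) was fitted with 1 mean per genotype over all 12 arrays, two-sided, with Benjamini-Hochberg adjustment over 22746 probe sets and calls at an adjusted p under 0.05. The fit was tested on simulated data. Precision is limited by how many arrays there are, and each p reflects only the variation among these seedlings' samples, which may be partly technical.

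Probe sets with 1 gene in the platform annotation (13513, of which 13436 matched a TAIR10.1 locus) were named, and 8794 unlisted ones were not. A gene with several was represented by the brightest. The genes and 13 lists (29 of 191 members measured) were chosen with earlier results of these data known. Named were STOMAGEN, the 10 genes with the highest and the 10 with the lowest r, the 5 with the highest r of deviations, measured pathway members, neighbours and up to 6 genes of each other list by adjusted p in the double mutant.

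Same-numbered arrays were taken as paired where all 3 correlations of deviations exceeded 0.1. They ran from 0.138 to 0.174 for spch with WT, 0.103 to 0.299 for scrm-D with WT, 0.215 to 0.525 for the double mutant with scrm-D and 0.110 to 0.251 for it with spch. The double mutant with WT (from 0.0826) and scrm-D with spch (from 0.0338) fell short. What the numbers stand for is not stated in the labels.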

Additional observations from a re-analysis of the deposited data

How the results depend on the processing

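STOMAGEN kept its negative sign in all 6 comparisons under every alternative run (arrays of the 2 groups only, replicate block, dim probe sets left out, array medians subtracted, intensity trend with robust prior, 25S rRNA covariate, each array left out, and replicates 2 and 3 alone, the last chosen after the data were seen). The calls of the double mutant against WT and against spch held under all of them, and no alternative gave a call for spch against WT. Calls appeared for scrm-D against WT at −1.23 with the 2 groups only (adjusted p = 0.0254), with the replicate block (0.000878) and without dim probe sets (0.0400), and at −0.94 on replicates 2 and 3. The double mutant against scrm-D gained a call at −1.06 with the block and at −1.12 on replicates 2 and 3. For scrm-D against spch, which the numbers did not pair, the block gave −0.68 (adjusted p = 0.0146) and replicates 2 and 3 gave −0.75. The block changed no other STOMAGEN call, and for the double mutant against WT, also unpaired, it gave −2.29 with adjusted p = 4.5e-06. In these comparisons most alternatives gave no call. For scrm-D against WT 13 gave none and 6 gave a call. For the double mutant against scrm-D the counts were 15 and 4, and for scrm-D against spch 16 and 3. Leaving out 1 array gave −1.13 to −0.29 for scrm-D against spch, −1.45 to −0.84 for scrm-D against WT and −1.44 to −0.74 for the double mutant against scrm-D. The cause was not tested.

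Counts of probe sets called moved by over 1.5 times with the 25S rRNA covariate, to 3736 of 6297 in the double mutant and 2108 of 4442 in spch, both against WT. Leaving out 1 array gave 2955 (without spch replicate 4) to 4596 in spch and 2127 (without scrm-D replicate 4) to 3496 in scrm-D against WT. For the double mutant against scrm-D it gave 1962 to 3333, with 1968 and 1962 without replicates 2 and 3 of the double mutant. Of the 20 genes most or least like STOMAGEN, 9 remained with Spearman's rho, 5 with genotype means, 13 without filters, 9 without the 2 arrays farthest from the median, 10 (without spch replicate 4) to 19 without any 1 array and 1 on replicates 2 and 3.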

Other observations

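The 25S rRNA control probe set read between 6.56 and 11.04 on the replicate 4 arrays and between 7.27 and 11.06 on the others. It was lowest on replicate 4 in 3 of 4 genotypes, spch being the exception. Its level also went largely with genotype. Every WT array read lower than every mutant array except replicate 4 of the double mutant, which lay in the WT range at 6.96. The remaining mutant arrays read at least 8.66. In the comparisons with WT, the 25S level and genotype can thus be told apart only in part, also with the 25S rRNA covariate. Replicate 4 of the double mutant also carried a trace of the bacterial phe control. Its 6 probe sets averaged 5.15 there, against 4.15 to 4.34 on the other arrays without that control and 13.07 to 13.09 on the scrm-D arrays. Every scrm-D array thus carried the phe control and, apart from this trace, no array of another genotype did. In the comparisons of scrm-D with WT, spch and the double mutant, this difference in handling cannot be told apart from genotype. The part of either in the STOMAGEN values was not tested.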
